A study of Mus musculus with 4 samples.

Results

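Tendon and matricellular genes were examined as a group of 10 genes in mouse gastrocnemius muscle. The rows were chosen by gene symbol from 23282 gene rows, and all 10 symbols were found, each in 1 row. The group holds the tendon genes Tnmd, Scx and Mkx, the thrombospondins Thbs1, Thbs4 and Comp, the matricellular genes Sparc, Postn and Tnc, and the matrix glycoprotein gene Fn1. The measured quantity was messenger RNA, sequenced from the 3′ end of transcripts (QuantSeq), so a read count does not grow with gene length. The study crossed treadmill exercise (E) with a tumor (T), to see how exercise changes muscle gene expression with and without cancer. There were 4 libraries, 1 per group. The tumor-free pair was normal control (E-T-) and normal exercise (E+T-), and the tumor-bearing pair was made up of cancer control, coded E-T+, and of cancer exercise, coded E+T+. Values of a pair are given below with the sedentary library first and the exercised library second, and 4 values in a row start with the tumor-free pair. All mice were males of the hybrid strain CDF1, labelled as postnatal day 28, an age that the methods give for their arrival and not for sampling. Exercised mice ran at high intensity on a treadmill, and sedentary mice did not run. Tumor-bearing mice had received CT26 cells, a murine colorectal cancer line, through the tail vein, so no tumor was placed in the muscle itself. Tumor-free mice received no cancer cells. The labels name 10 mice per group, while the text of the study describes 1 representative mouse, so a library may hold 1 animal or a pool. With 1 library per group there was no spread between replicates, no test was possible, and every difference below is one between 2 libraries.

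Tendon is built by fibroblast-like cells, the tenocytes, which lay down aligned collagen fibres. Scleraxis and Mohawk are transcription factors that set up and maintain the tenocyte programme, and tenomodulin is a membrane glycoprotein that marks mature tenocytes. Matricellular proteins are secreted into the matrix but serve less as its scaffold than as regulators of the contact between cells and fibres. In a limb muscle, most of these genes are expressed mainly in fibroblasts of the connective tissue sheaths and at the junction of muscle and tendon, not in the muscle fibres.

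The libraries held between 10647488 and 13225979 reads, rebuilt from the deposited values, with reads for 14427 to 14830 genes. A level is given as a normalised read count, and a fold change as a difference of log2 values with a pseudocount of 1. Intervals of fold changes are 95% intervals of the read counts and cover counting error only. The 14 skeletal muscle fibre genes took 14.6% and 13.1% of all reads in the tumor-free pair and 9.30% and 9.89% in the tumor-bearing pair, and none of them was at 0. Cancer control stood apart in keratinocyte genes. Krt5, a keratin of the basal epidermis, had 20 reads there and 0 in the other 3 libraries, and the summed level of 10 such genes was 837 in cancer control and 116 to 233 elsewhere. Hepatocyte genes were also highest in cancer control, at a summed 2440 over 9 genes against 646 to 1638. The summed level of 11 neutrophil genes was 110 and 203 in the tumor-free pair and 2752 and 2060 in the tumor-bearing pair. The summed level of 8 red cell genes ran from 0.480% of reads in normal exercise to 4.23% in cancer exercise. The part of these other tissues in the values of the 10 genes was not tested.

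The 10 genes were mostly highest in the untreated muscle. Normal control had the highest value for 9 of the 10 genes, where 27.1% of the 15485 genes past the minimum had their highest value in that library. The exception was Thbs1, which was highest in cancer control. The lowest value fell in cancer control for 5 genes (Scx, Mkx, Thbs4, Comp and Tnc), in cancer exercise for 4 (Tnmd, Sparc, Postn and Fn1) and in normal exercise for Thbs1. The summed level of the 10 genes was 26317 and 10146 in the tumor-free pair and 6663 and 8253 in the tumor-bearing pair. These sums were 0.220%, 0.0946%, 0.0584% and 0.0691% of all reads. Sparc supplied 45.3% to 65.6% of the sum and Thbs4 20.2% to 45.0%, so the sum reports these genes more than the others. Muscle is a mixture of cells, and in a bulk sample fewer cells of a type and less RNA per cell cannot be told apart.

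**Figure D1:**
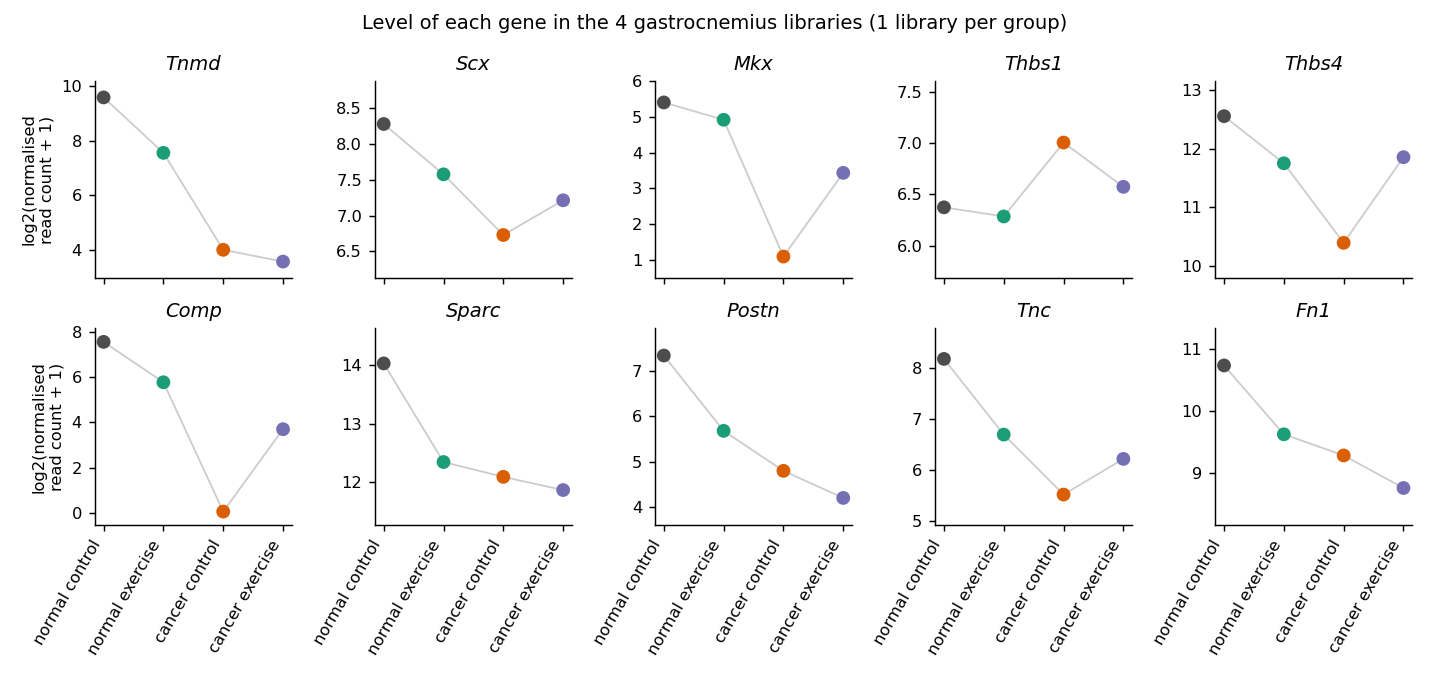
Level of each of the 10 genes in the 4 libraries, as log2 of the normalised read count with 1 added (vertical axis, own range per panel), with 1 point per library and no error bars since each group has 1 library. All panels but that of Thbs1 start at their highest point in normal control, and Comp reaches the bottom of its panel in cancer control, where it had 0 reads.

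The start regions of 3 members are shown, because their genes moved in different ways across the libraries. Tnmd had the widest range among members with reads in every library, while Thbs4 and Tnc were lower with exercise in tumor-free mice and higher with exercise in tumor-bearing mice. Windows run from 250 bases before to 50 bases after a RefSeq start (build GRCm38.p6), 5′ to 3′ on the strand of the gene, and 5 of the 10 genes were matched in the table. Capitals mark the E-box CANNTG, the word read by basic helix-loop-helix factors, to which scleraxis belongs. The word is its own reverse complement, so a match holds for both strands, and 72.3% of all 32851 windows hold at least 1.
Tnmd, chrX:133850758-133851057, plus strand: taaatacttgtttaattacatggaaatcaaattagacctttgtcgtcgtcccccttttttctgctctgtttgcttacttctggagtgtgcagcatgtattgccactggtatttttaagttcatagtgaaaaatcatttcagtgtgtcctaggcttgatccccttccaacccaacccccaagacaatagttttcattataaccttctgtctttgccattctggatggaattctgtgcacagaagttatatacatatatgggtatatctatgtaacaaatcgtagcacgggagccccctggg
Thbs4, chr13:92794769-92795068, minus strand: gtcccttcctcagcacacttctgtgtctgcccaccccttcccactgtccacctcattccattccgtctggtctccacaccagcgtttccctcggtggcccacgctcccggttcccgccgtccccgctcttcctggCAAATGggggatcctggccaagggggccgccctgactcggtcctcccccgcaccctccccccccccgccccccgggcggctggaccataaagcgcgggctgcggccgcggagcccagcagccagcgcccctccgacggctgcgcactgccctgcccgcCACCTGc
Tnc, chr4:64046966-64047265, minus strand: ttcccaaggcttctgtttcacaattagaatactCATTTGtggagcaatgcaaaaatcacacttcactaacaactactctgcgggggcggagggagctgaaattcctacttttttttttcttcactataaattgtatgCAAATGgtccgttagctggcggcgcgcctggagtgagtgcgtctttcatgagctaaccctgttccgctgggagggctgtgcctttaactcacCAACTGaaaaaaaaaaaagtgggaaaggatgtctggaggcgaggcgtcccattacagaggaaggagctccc
The Tnmd window held 0 matches, the Thbs4 window 2 and the Tnc window 3. A further Tnc window, at chr4:64046887-64047186, held 2 and is not shown. The Sparc window held 3 and the Postn windows 0, and they are not shown either. The Thbs4 and Tnc windows shown were placed on the annotated gene start, and the Tnmd window was not. The median window held 1 match, and 17.6% of all windows held 3 or more. A match of letters does not show that a factor binds there, and a window without a match says only that the word is missing from these 300 bases.

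Tnmd encodes tenomodulin and lies at chrX:133850980-133865577 on the plus strand (GRCm38, GENCODE M21, the same assembly as mm10). Its normalised read count was 769 and 187 in the tumor-free pair and 15.1 and 10.9 in the tumor-bearing pair, from 723, 231, 14 and 10 reads. Both tumor-free libraries were far above both tumor-bearing ones, and normal control was above normal exercise. The highest value was 70.5-fold the lowest, and cancer control and cancer exercise did not differ beyond counting error. With exercise in tumor-free mice Tnmd was lower, with a log2 fold change of -2.03 (interval -2.26 to -1.82). With the tumor the log2 fold change was -5.58 in sedentary mice (-6.56 to -4.92) and -3.98 in exercised mice (-5.19 to -3.21). These were among the lowest fold changes of the whole table, since only 0.472% of all genes tested lay below Tnmd in the sedentary comparison and 0.905% in the exercised one. In tumor-bearing mice exercise gave -0.43, an interval of -1.80 to 0.81 that included 0.

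Scx encodes scleraxis, the basic helix-loop-helix factor of tendon progenitors, and lies at chr15:76457452-76459458 on the plus strand. Its normalised read count was 309 and 190 in the tumor-free pair and 105 and 147 in the tumor-bearing pair. All neighbours in the order of levels differed beyond counting error, over a range of 2.95-fold, the narrowest of the 3 tendon genes. The tumor in sedentary mice gave -1.55 (interval -1.91 to -1.23), the only comparison in which Scx passed 2-fold. Exercise gave -0.70 (-0.96 to -0.45) in tumor-free mice and 0.49 (0.10 to 0.88) in tumor-bearing mice. The tumor in exercised mice gave -0.36 (-0.68 to -0.05). Scx lies inside Bop1, a ribosome biogenesis gene on the opposite strand, and the use of strand in counting was not given in the sources used here. Reads of the pair may therefore not be told apart. Bop1 had a different order, at 123 and 301 in the tumor-free pair and 223 and 246 in the tumor-bearing pair.

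Mkx encodes Mohawk, a homeobox factor of tendon and ligament, and lies at chr18:6934518-7004780 on the minus strand. It was the least abundant of the tendon genes, with 39 and 36 reads in the tumor-free pair and 1 and 9 in the tumor-bearing pair. The normalised read counts were 41.4, 29.3, 1.12 and 9.80. Both tumor-free libraries were above both tumor-bearing ones, and the tumor-free pair did not differ beyond counting error. The tumor in sedentary mice gave -4.32, with an interval as wide as -10.6 to -2.71 because cancer control had 1 read. Exercise in tumor-bearing mice gave 2.35 (0.33 to 8.64), and the tumor in exercised mice -1.49 (-2.82 to -0.50). In tumor-free mice exercise gave -0.49 (-1.20 to 0.18).

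Tnmd did not move in proportion to Scx. The ratio of the normalised read counts of Tnmd to Scx was 2.48 and 0.987 in the tumor-free pair and 0.143 and 0.0740 in the tumor-bearing pair. The tumor-bearing ratios rest on 14 and 10 Tnmd reads, and reads of Scx and Bop1 may not be told apart. Reads come from 3′ ends, so the ratio was not corrected for length, and its change between libraries does not depend on length.

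Thbs1 encodes thrombospondin 1, a large secreted glycoprotein of platelets and many stromal cells that can activate latent transforming growth factor beta. The gene lies at chr2:118111876-118127133 on the plus strand. The normalised read count was 81.9 and 76.9 in the tumor-free pair and 127 and 94.2 in the tumor-bearing pair. Cancer control was the highest and the other 3 were close, with a range of 1.66-fold, the narrowest of the 10 genes. Normal exercise and normal control did not differ beyond counting error, nor did normal control and cancer exercise. No comparison passed 2-fold. The tumor in sedentary mice gave 0.63 (interval 0.21 to 1.07) and in exercised mice 0.29 (-0.15 to 0.73). Exercise gave -0.43 (-0.85 to -0.02) in tumor-bearing mice and -0.09 (-0.54 to 0.36) in tumor-free mice. The platelet gene Pf4 was also highest in cancer control, at 895 and 864 in the tumor-free pair and 1530 and 1015 in the tumor-bearing pair. Summed over 9 platelet genes, the level was 1098, 1007, 1767 and 1300 in that order, mostly from Pf4. Without Pf4, a step chosen after its values were seen, the sum was 202, 143, 237 and 286, highest in cancer exercise. The part of platelets in the Thbs1 values was not tested.

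Thbs4 encodes thrombospondin 4, a pentameric protein of tendon and of the muscle-tendon attachment, and lies at chr13:92751590-92794818 on the minus strand. Its normalised read count was 6038 and 3455 in the tumor-free pair and 1346 and 3714 in the tumor-bearing pair. Cancer control was by far the lowest, and cancer exercise was close to normal exercise. The tumor in sedentary mice gave -2.16 (interval -2.25 to -2.08), and exercise in tumor-bearing mice gave 1.46 (1.37 to 1.56). With 1257 reads in cancer control and 3429 in cancer exercise, Thbs4 was the best counted of the genes that were higher with exercise in tumor-bearing mice. Cancer exercise was still lower than normal control, with a log2 fold change of -0.70. In tumor-free mice exercise gave -0.81 (-0.86 to -0.75). The tumor in exercised mice gave 0.10 (0.04 to 0.17), a sign that turned with scaling to the total count, which gave -0.05.

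Comp encodes cartilage oligomeric matrix protein, the fifth thrombospondin, which binds collagen fibrils of cartilage and tendon. The gene lies at chr8:70373558-70382066 on the plus strand. It had 175 and 66 reads in the tumor-free pair and 0 and 11 in the tumor-bearing pair, or normalised read counts of 186, 53.5, 0.0497 and 12.0. The small value in cancer control comes from the normalisation and not from a read. All neighbours in the order of levels differed beyond counting error. Set against a floor of 3 reads per library, Comp was at least 57.9-fold lower with the tumor in sedentary mice and at least 3.71-fold higher with exercise in tumor-bearing mice. Exercise in tumor-free mice gave -1.78 (interval -2.23 to -1.38), and the tumor in exercised mice gave -2.07 (-3.24 to -1.24). Cartilage genes were near the limit of detection. Acan had 0 reads in all 4 libraries, Col2a1 had 4 reads in normal control and 0 elsewhere, and Sox9, at 214, 156, 157 and 256, was not absent from any library.

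Sparc encodes osteonectin, a collagen-binding matricellular protein made by many stromal and endothelial cells, and lies at chr11:55394500-55423183 on the minus strand. It was the most abundant member, with normalised read counts of 16739 and 5212 in the tumor-free pair and 4374 and 3742 in the tumor-bearing pair. Normal control stood alone, and the other 3 libraries lay close together, although every step exceeded counting error. Exercise in tumor-free mice gave -1.68 (interval -1.73 to -1.64), and the tumor in sedentary mice -1.94 (-1.99 to -1.89). Exercise in tumor-bearing mice gave -0.23 (-0.29 to -0.16), and the tumor in exercised mice -0.48 (-0.54 to -0.42). Neither of these passed 2-fold.

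Postn encodes periostin, which helps collagen cross-linking in connective tissue under load, and lies at chr3:54361109-54391037 on the plus strand. The normalised read count was 160 and 50.2 in the tumor-free pair and 26.8 and 17.4 in the tumor-bearing pair. The values fell into the same order as those of Sparc, over a wider range of 9.22-fold, and the tumor-bearing pair, with 25 and 16 reads, did not differ beyond counting error. Running in tumor-free mice gave -1.66 (interval -2.13 to -1.24). The tumor gave -2.54 (-3.26 to -1.97) in sedentary mice and -1.48 (-2.43 to -0.73) in exercised mice. In tumor-bearing mice exercise gave -0.60, an interval of -1.63 to 0.33 that included 0.

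Tnc encodes tenascin C, a hexameric protein of the muscle-tendon junction that loosens cell adhesion, and lies at chr4:63959785-64047015 on the minus strand. Levels were 289 and 103 in the tumor-free pair and 45.0 and 73.7 in the tumor-bearing pair. Normal control was the highest and cancer control the lowest, as for Scx, Mkx, Thbs4 and Comp. The tumor in sedentary mice gave -2.66 (interval -3.19 to -2.21), and exercise in tumor-free mice -1.48 (-1.81 to -1.18). Exercise in tumor-bearing mice gave 0.70 (0.14 to 1.30), and the tumor in exercised mice -0.48 (-0.93 to -0.05). The ratio of Postn to Tnc was 0.555, 0.488 and 0.595 in normal control, normal exercise and cancer control, and 0.236 in cancer exercise. The last value rests on 16 Postn reads.

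Fn1 encodes fibronectin, the adhesive glycoprotein on which collagen fibres are assembled, and lies at chr1:71585520-71653200 on the minus strand. Its normalised read count was 1703 and 789 in the tumor-free pair and 622 and 432 in the tumor-bearing pair. Every step in this order exceeded counting error, over a range of 3.94-fold. Exercise in tumor-free mice gave -1.11 (interval -1.23 to -0.995), and the tumor in sedentary mice -1.45 (-1.59 to -1.32). In tumor-bearing mice exercise gave -0.53 (-0.71 to -0.34), and the tumor in exercised mice -0.87 (-1.04 to -0.70). The ratio of Fn1 to Sparc stayed between 0.102 and 0.151 over the 4 libraries. These genes had the closest pair of profiles among the 10, with a distance of 0.460 on the log2 scale over the 4 libraries. An antisense gene that overlaps Fn1, Apol7d, had 13 reads in cancer control and 0 elsewhere, against 399 or more reads of Fn1.

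Exercise in tumor-free mice was asked first, as normal exercise against normal control. All 10 genes were lower, except that Thbs1 turned to 0.07 when libraries were scaled to the total count. A fold change counted as past the threshold when it was at least 2-fold and 1 of the 2 libraries had a normalised read count of at least 4. By this rule 6 of the 10 genes were lower (Tnmd, Comp, Sparc, Postn, Tnc and Fn1) and 0 were higher. Among all 14518 genes tested 21.5% passed, 12.1% lower and 9.44% higher. The median of the 10 genes was -1.30, beside -0.01 for all genes. Scaling to the total count put the median of all genes at 0.15 here, and Fn1 then no longer passed, at -0.95. Scx, Mkx, Thbs1 and Thbs4 were the members that did not pass.

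The tumor in sedentary mice, cancer control against normal control, was the comparison with the widest changes. By the same rule 9 of the 10 genes were lower and 0 higher, and Thbs1 was the member that did not pass. The background was wide too, since 45.1% of 14818 genes passed, 24.2% lower and 20.9% higher. The median of the 10 genes was -2.35, or -2.37 with libraries of 3 or fewer reads set to 3, beside -0.04 for all genes. Comp, Tnmd and Mkx were the lowest members, below which lay 0.0810%, 0.472% and 1.69% of all genes tested.

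Exercise in tumor-bearing mice, cancer exercise against cancer control, left the group near the background. By the same rule 3 genes were higher (Mkx, Thbs4 and Comp) and 0 were lower, where 30.6% of 14491 genes passed, 15.6% higher and 15.1% lower. Mkx and Comp had 1 and 0 reads in cancer control, so Thbs4 was the 1 member of these that was well counted in both libraries. The median of the 10 genes was 0.13, beside 0.005 for all genes, with 5 genes above 0 and 5 below.

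The tumor in exercised mice, cancer exercise against normal exercise, left fewer genes past the threshold. By the same rule 4 of the 10 genes were lower (Tnmd, Mkx, Comp and Postn) and 0 were higher, where 30.3% of 14470 genes passed, 16.3% lower and 13.9% higher. The median of the 10 genes was -0.67, beside -0.03 for all genes. Scaling to the total count put the median of all genes at -0.18, and 5 members then passed. Of the 40 fold changes over the 4 comparisons, 22 passed 2-fold, 35 had intervals that excluded 0, and 18 had intervals wholly past 2-fold. The comparisons share libraries, so their counts are not independent of each other.

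**Figure D2:**
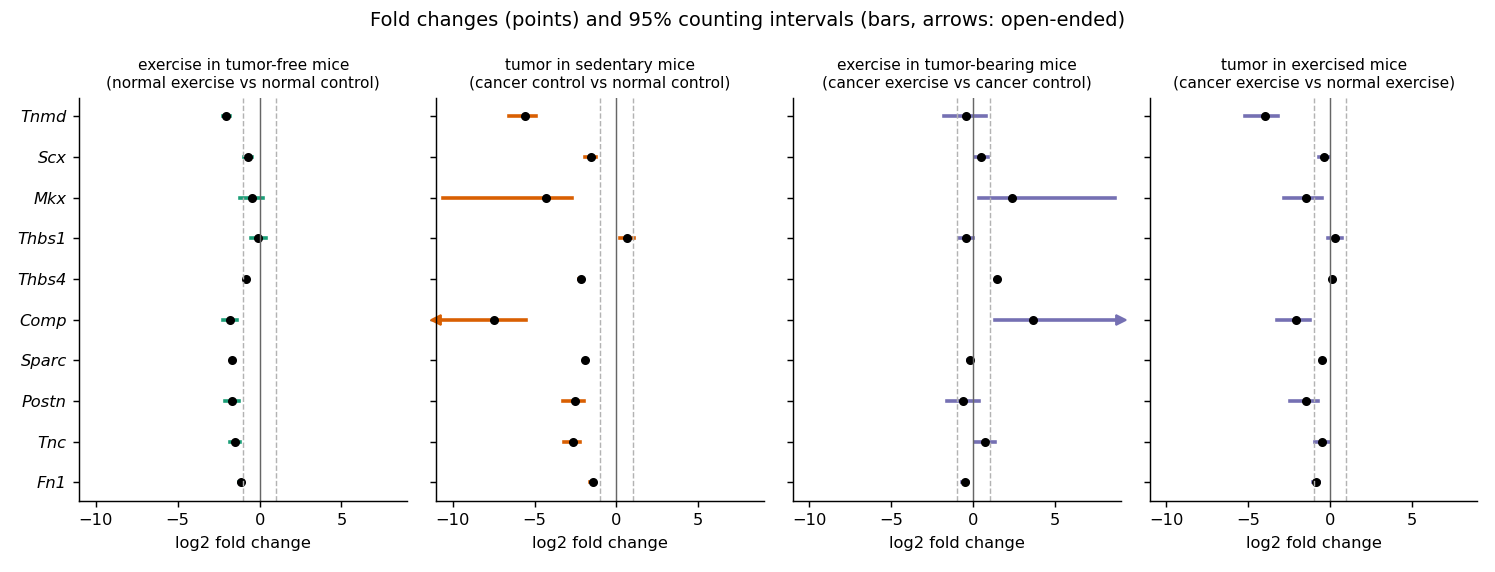
Log2 fold change of each gene (horizontal axis) in the 4 comparisons, with 95% counting intervals as bars, arrows for intervals without an end, and dashed lines at 2-fold. In sedentary mice 9 of the 10 points lie left of the 2-fold line with the tumor, and in tumor-bearing mice Mkx, Thbs4 and Comp lie right of it with exercise.

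**Figure D3:**
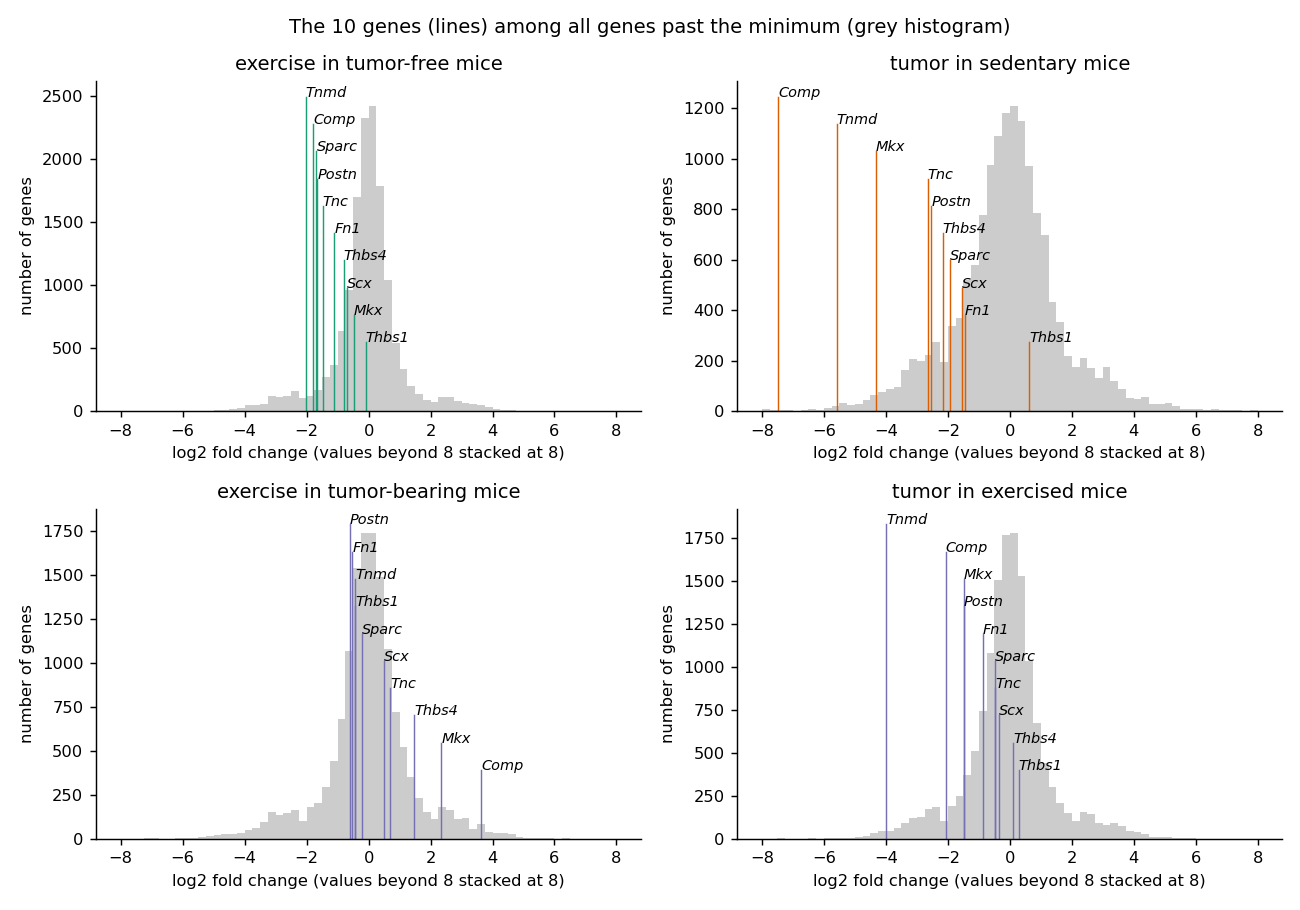
Log2 fold changes of the 10 genes (coloured lines, whose heights only separate the names) over the histogram of all genes past the minimum (grey, number of genes per bin) in the 4 comparisons. With the tumor in sedentary mice Comp, Tnmd and Mkx lie in the left tail, where 0.0810%, 0.472% and 1.69% of all genes lie below them.

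Opposite signs of the exercise fold change in the 2 settings were as common among the 10 genes as in the whole table. They were found for 5 of the 10 genes, beside 51.6% of the 13524 genes past the minimum in both comparisons, so the count is not a result about the group. Scx, Mkx, Thbs4, Comp and Tnc were lower with exercise in tumor-free mice and higher with exercise in tumor-bearing mice, an order that 26.4% of those genes had. For 4 of these 5 genes both intervals excluded 0, and for Mkx the interval in tumor-free mice included it. Tnmd, Thbs1, Sparc, Postn and Fn1 were lower in both settings, again except Thbs1 under scaling to the total count, by which 6 genes had opposite signs. The difference of the log2 fold changes, tumor-bearing minus tumor-free, was 1.19 for Scx, 2.27 for Thbs4 and 2.18 for Tnc. It was 2.83 for Mkx and 5.41 for Comp, values that rest on 1 and 0 reads and came to 2.11 and 3.70 with 3 or fewer reads set to 3. Among the genes lower in both settings it was 1.60 for Tnmd, 1.46 for Sparc, 1.06 for Postn, 0.59 for Fn1 and -0.34 for Thbs1. With 1 library per group these differences were not tested.

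**Figure D4:**
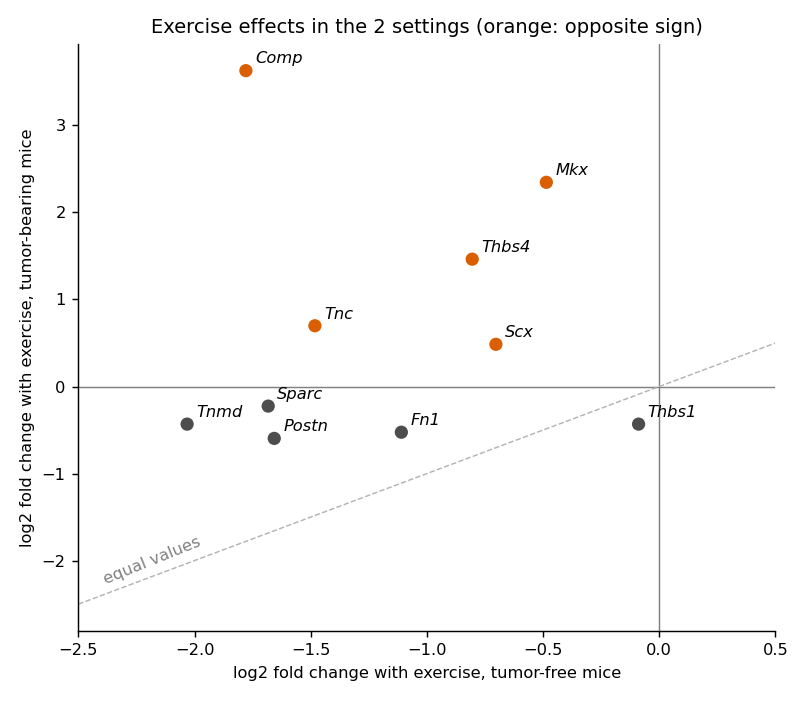
Log2 fold change of each gene with exercise in tumor-free mice (horizontal axis) and in tumor-bearing mice (vertical axis), with 1 point per gene and a dashed line where both are equal. The 5 orange genes (Scx, Mkx, Thbs4, Comp and Tnc) lie left of 0 and above 0, and the value of Comp above 0 depends on the pseudocount because cancer control had 0 reads.

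None of the 5 genes with opposite signs returned to the level of normal control in cancer exercise. Against normal control, cancer exercise was at -1.07 for Scx, -1.97 for Mkx, -0.70 for Thbs4, -3.85 for Comp and -1.96 for Tnc. Thbs4 and Sparc, the most abundant members, moved apart. The ratio of Thbs4 to Sparc was 0.361 and 0.663 in the tumor-free pair and 0.308 and 0.992 in the tumor-bearing pair. The ratio was higher in each exercised library than in its sedentary counterpart. Thbs4 and Comp, which are close relatives, also moved apart. Their ratio was 32.5 in normal control, 64.6 in normal exercise and 310 in cancer exercise, where Comp had only 11 reads. Comp had no reads in cancer control.

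Other tendon genes, a list of 22 of which 21 had reads, were mostly lower, except with exercise in tumor-bearing mice. The shares of all genes past the threshold, given above for each comparison, are the background for this list and for those below. With exercise in tumor-free mice 9 of 21 were lower past 2-fold and 1 higher, with a median of -0.82. With the tumor in sedentary mice 14 of 21 were lower and 1 higher, with a median of -2.93. With exercise in tumor-bearing mice 8 of 19 were higher and 1 lower, with a median of 0.85. With the tumor in exercised mice 12 of 21 were lower and 2 higher, with a median of -1.38. Fmod, a proteoglycan that spaces collagen fibrils, was 2343 and 815 in the tumor-free pair and 47.2 and 209 in the tumor-bearing pair. Kera, a related proteoglycan, was 486, 126 and 7.65 in normal control, normal exercise and cancer exercise, with 0 reads in cancer control. Chad, a cartilage and tendon protein that binds integrins, was 341, 202 and 1.15 in the same 3 libraries, again with 0 reads in cancer control. Col1a1, the main chain of type I collagen, was 9741, 1096, 124 and 377 over the 4 libraries in the same order as Fmod. Chad had 0 reads in cancer control and 1 in cancer exercise, too few to set an order between them. Fmod, Kera and Col1a1 had their lowest value in cancer control, but not every gene of the list did. Angptl7, a secreted protein related to the angiopoietins, was highest there, at 1798 and 1058 in the tumor-free pair and 3118 and 2335 in the tumor-bearing pair. Dcn, a proteoglycan of general connective tissue, had a smaller range, at 57888, 37431, 35363 and 34756. Col1a1 was one of the genes the study had singled out on these samples, as increased with exercise and decreased with cancer. The study also used RT-qPCR on littermates and overexpressed Col1a1 in CT26 cells. In the values used here Col1a1 was lower with exercise in tumor-free mice (-3.15), unlike that description. It was lower with the tumor in sedentary mice (-6.28) and higher with exercise in tumor-bearing mice (1.59).

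Other matricellular genes, with 22 of 26 having reads, were mixed. With the tumor in sedentary mice 9 of 22 were lower past 2-fold and 6 higher, with a median of -0.85. With exercise in tumor-free mice 7 of 21 were lower and 0 higher, with a median of -0.46. With exercise in tumor-bearing mice 3 of 22 were higher and 2 lower (median 0.26), and with the tumor in exercised mice 5 were higher and 5 lower (median -0.08). Thbs2, which inhibits blood vessel growth, followed Thbs1 in having its highest value in cancer control, at 232 and 125 in the tumor-free pair and 513 and 327 in the tumor-bearing pair. Spp1, or osteopontin, a product of macrophages and injured tissue, was 69.2, 31.4, 285 and 120 in the same order. Ctgf, a growth factor-binding matrix protein, was 632, 889, 2179 and 1361. These 3 genes were higher in both tumor-bearing libraries than in both tumor-free ones, whereas Sparcl1, the nearest relative of Sparc, was lower, at 14017, 12519, 3829 and 5637.

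Receptors of these proteins had medians near 0 in the first 3 comparisons. Of 19 cell surface receptor genes, 0 were higher and 4 lower with exercise in tumor-free mice, and 2 were higher and 5 lower with the tumor in sedentary mice. Among all genes 9.44% were higher and 12.1% lower in the former comparison, and 20.9% higher and 24.2% lower in the latter. With exercise in tumor-bearing mice 1 of 18 was higher and 0 lower, and with the tumor in exercised mice 4 of 19 were higher and 3 lower. The medians of the 4 comparisons were -0.18, -0.07, 0.08 and 0.33. Itgb1, the shared beta chain of the collagen and fibronectin receptors, was 2118 and 1739 in the tumor-free pair and 2051 and 2146 in the tumor-bearing pair. Itga5, the alpha chain of the fibronectin receptor, was scarce at 11.7, 0.669, 22.5 and 29.1, from 11, 1, 21 and 27 reads. Cd36, a receptor of thrombospondin 1 that also takes up fatty acids, was 2076, 1505, 1981 and 3377.

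Of 22 genes of transforming growth factor beta signalling, 20 had reads, and Tgfb1 was listed with 0 reads in all 4 libraries. The annotation used for counting was not given, so 0 reads do not show that Tgfb1 was not expressed. With the tumor in sedentary mice 5 of 20 were lower and 2 higher, where 24.2% of all genes were lower and 20.9% higher. With exercise in tumor-free mice 3 were lower and 0 higher, where 12.1% of all genes were lower and 9.44% higher. With exercise in tumor-bearing mice 1 of 19 was lower and 0 higher, and with the tumor in exercised mice 5 of 20 were lower and 4 higher. The medians were -0.38, -0.19, -0.27 and -0.05 in that order. Tgfb2, a ligand of the pathway, was 273 and 268 in the tumor-free pair and 72.9 and 118 in the tumor-bearing pair, while Tgfb3 was 400, 360, 308 and 327.

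Of 11 genes of the muscle-tendon junction, 1 was higher and 1 lower with exercise in tumor-free mice, 1 was higher and 2 lower with the tumor in sedentary mice, and 1 was higher and 1 lower in each of the other two comparisons. The medians lay between -0.34 and 0.28. Col22a1, a collagen found at the junction, was 44.6 and 19.4 in the tumor-free pair and 10.8 and 3.32 in the tumor-bearing pair. The tumor-bearing values rest on 10 and 3 reads, too few to set an order between them. Ankrd1, a stretch-responsive protein of muscle fibres, was 102, 352, 5249 and 3928.

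Markers of resident fibroblasts mostly moved with the group. All 12 had reads and no defining marker was at 0. Their summed level was 53006 and 39626 in the tumor-free pair and 15184 and 21506 in the tumor-bearing pair. Gsn supplied the largest part of it. Without Gsn, the sum was 18491 and 12844 in the tumor-free pair and 7134 and 8581 in the tumor-bearing pair. With exercise in tumor-free mice 4 of 12 were lower past 2-fold (median -0.51), and with the tumor in sedentary mice 9 were lower (median -1.90). With exercise in tumor-bearing mice 3 were higher (median 0.37), and with the tumor in exercised mice 8 were lower (median -1.06). Ly6a went the other way with the tumor, at 0.08 in sedentary and 0.67 in exercised mice. Smoc2 was lower with exercise in tumor-bearing mice, at -0.525. Pdgfra, the receptor that defines these cells, had a narrower range than most members, at 518 and 384 in the tumor-free pair and 321 and 326 in the tumor-bearing pair. Their part in the values of the 10 genes was not tested. The summed level of 10 endothelial genes ran from 4870 to 6538, and that of 12 macrophage genes from 4324 to 7297. The summed level of 10 smooth muscle and pericyte genes, 17723 in normal control and 30634 to 35436 elsewhere, came mostly from Des, which muscle fibres also express. Without Des, a step chosen after its values were seen, the sum was 2288 and 2463 in the tumor-free pair and 1286 and 1957 in the tumor-bearing pair. Of these 10 genes, 5 were lower and 0 higher with the tumor in sedentary mice (median -0.80), and 2 were higher and 0 lower with exercise in tumor-bearing mice (median 0.51). Schwann cell genes were lower in both exercised libraries, at 6059, 3306, 6253 and 2263.

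Adipocyte markers had medians of the same sign as the group in all 4 comparisons, but of different size, and were mixed with the tumor in exercised mice. With the tumor in sedentary mice 7 of 8 were lower past 2-fold and 1 higher (median -2.33), and with exercise in tumor-bearing mice 5 of 7 were higher and 0 lower (median 1.12). With exercise in tumor-free mice 3 of 8 were lower and 0 higher (median -0.68), and with the tumor in exercised mice 2 were higher and 1 lower (median -0.17). Adipoq, the fat cell hormone adiponectin, was 1939 and 753 in the tumor-free pair and 604 and 1122 in the tumor-bearing pair. Their sum of 41298, 24885, 26311 and 36908 shows less of this, because Pnpla2, a lipase that other cells also express, went the other way at 3018, 3342, 13748 and 10268. No defining adipocyte marker was at 0, and the part of these cells in the values of the 10 genes was not tested.

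**Figure D5:**
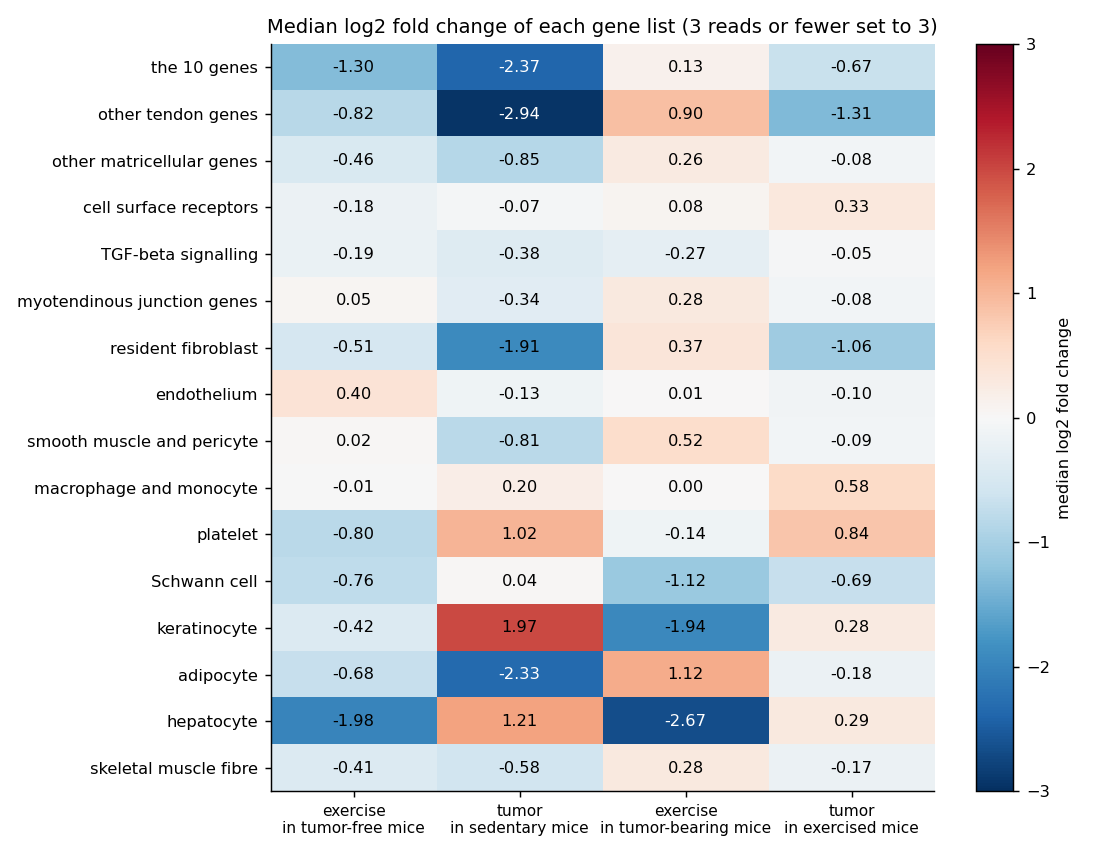
Median log2 fold change of the 10 genes and of the related and marker lists (rows) in the 4 comparisons (columns), with libraries of 3 or fewer reads set to 3 and colour from blue (lower) to red (higher). The 10 genes, the other tendon and matricellular genes and the fibroblast, adipocyte and skeletal muscle fibre genes all have blue cells in the first, the second and the last column and red ones in the third, with medians of different size.

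The genes with the most similar profiles differed between the members. Likeness was the Euclidean distance between log2 profiles over the 4 libraries, each centred on its own mean, among 12045 genes with a mean normalised read count of at least 16. With 4 points per profile, close matches arise easily among so many genes. For Thbs4 the nearest were Lrmp (0.106), Col12a1 (0.109), which codes for a fibril-associated collagen of tendon, and Vps45 (0.111). For Mkx they were Cd248 (0.187), a stromal cell surface protein, Rasgrp3 (0.242) and Slc24a3 (0.253). For Tnc they were Magix (0.0857), Car3 (0.223) and Fbn1 (0.276), the main fibrillin of elastic microfibrils. For Sparc the first was Clec11a (0.216), and for Comp it was Ssc5d (0.530). For Tnmd they were Agbl1 (0.480), Lep (0.607) and Lrrtm3 (0.701), none of which had reads in the tumor-bearing libraries. Comp and Tnmd had the most distant nearest genes of the 10 members. Within the group, Scx and Thbs4 were the next closest pair after Sparc and Fn1, at 0.699, and Thbs1 and Comp the farthest apart, at 6.09.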

How the data were processed

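Total RNA of the right gastrocnemius muscle was made into QuantSeq 3′ libraries and sequenced. According to the methods and the processing notes, the authors aligned reads with Bowtie2 to mm10, counted them per gene with bedtools and applied quantile normalisation with edgeR. The annotation, strand, duplicates and multiply mapped reads were not given in the sources used here. The deposited values are log2 of normalised counts with 1 added, and they were used as they stand. Their steps were inverted with 1 dispersion (0.340) and 4 scaling factors to rebuild read counts. All values (100%) were matched within 0.0006, and 92.5% to 94.4% of them were tied to 1 read count, a procedure tested on simulated data. A floor of 3 reads was 2.27e-05% to 2.82e-05% of a library. Intervals are Clopper-Pearson intervals of read shares, and as no molecular identifiers are described they cover counting error only. Python 3.11.15, numpy 2.4.6, pandas 2.3.3 and scipy 1.17.1 were used. Groups came from sample titles. No p-value was computed. All 10 members are named. Of each list the 4 most abundant genes and preset defining genes could be named, and of similar profiles the 3 nearest per member. Krt5, Bop1 and Apol7d are named as a defining marker or for overlap with a member. The members and lists were chosen with earlier results of these data known.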

Additional observations from a re-analysis of the deposited data

Results flagged for a closer look

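Exercise had opposite signs in tumor-free and tumor-bearing mice for 5 of the 10 genes, beside 51.6% of the 13524 genes past the minimum in both comparisons, so the count itself is near the background. The difference was not tested for any gene, since each group had 1 library. The log2 fold change with exercise in tumor-bearing mice minus that in tumor-free mice was 1.19 for Scx, 2.83 for Mkx, 2.27 for Thbs4, 5.41 for Comp and 2.18 for Tnc. For Scx, Thbs4, Comp and Tnc the counting intervals of both fold changes excluded 0. The value of Comp rests on 0 reads in cancer control and that of Mkx on 1 read, and with 3 or fewer reads set to 3 they came to 3.70 and 2.11. Cancer control enters 1 of the 2 exercise comparisons and stood apart in keratinocyte genes, with a summed level of 837 against 116 to 233 in the other 3 libraries, and the part of this in the 5 values was not tested.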

How the results depend on the processing

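Members past the threshold were counted again under other scalings, pseudocounts, minimums, a stricter fold and reads thinned to the smallest library. The scaling by trimmed means of log ratios (TMM) had factors within 0.00835% of those fitted to the deposited values. Its recalculations therefore nearly repeat the reported setting, and they are counted among those below. Of the 40 recounts, 36 lay within 1.5 times the reported count. With a fold of at least 4 the count was 1 instead of 6 for exercise in tumor-free mice and 2 instead of 4 for the tumor in exercised mice. For exercise in tumor-bearing mice it was 1 instead of 3 both with a minimum of 4 in both libraries and with a minimum of 16 in 1 library, because these remove Mkx and Comp. The medians moved little in all 24 recalculations. Of 240 fold changes recalculated, 233 stayed within the counting interval and 7 moved beyond it, all with scaling to the total count, as did 3 of 60 differences of exercise effects. Leaving out a replicate was not possible, since each group has 1 library. No paired analysis was possible because each group has 1 library. The depth limits Mkx and Comp, and Postn and Tnmd in tumor-bearing mice, which had at most 25 reads there.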
